A study of Mus musculus with 6 samples.

Results

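The genes described here encode subunits of the nicotinic acetylcholine receptor (Chrna3, Chrna4, Chrna5, Chrna7, Chrnb2 and Chrnb4), 6 of the 22298 genes in the deposited expression table. They were picked by gene symbol with earlier results of the same comparison of epinephrine-exposed and control cells known. Their values in that comparison are therefore given as a description, without a test. RNA was sequenced from MIN6 cells, an insulin-secreting line derived from a mouse insulinoma, in 2 groups, control (n = 3) and chronic epinephrine (n = 3). The study used 100 nM epinephrine, 3 days of exposure followed by 2 days without the hormone, and cells between passages 32 and 40. It does not name the day of RNA collection for sequencing, so it is not known here whether these samples had passed through withdrawal. All samples come from a single cell line, and p-values measure the spread between these samples. The study describes its data in general as coming from biological replicates, while the labels do not say which samples were separate cultures.

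Nicotinic receptors are pentameric cation channels opened by acetylcholine and by nicotine, and they belong to the Cys-loop family together with GABA-A, glycine and serotonin type 3 receptors. Chrna3 with Chrnb4 forms the main receptor of autonomic ganglia, Chrna4 with Chrnb2 the main high-affinity receptor of the brain, Chrna7 forms receptors by itself, and Chrna5 is an accessory subunit that joins receptors made of other alpha and beta subunits. In pancreatic islets, acetylcholine from parasympathetic nerves is best known for raising insulin secretion through the muscarinic receptor Chrm3, and nicotinic subunits have been found in beta-cells as well.

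Chrna5, Chrna3 and Chrnb4 lie next to each other on mouse chromosome 9. In GRCm38, the build named in the submitters' processing notes, GENCODE M21 places Chrna5 (ENSMUSG00000035594) at chr9:54980880-55007779 on the plus strand, Chrna3 (ENSMUSG00000032303) at chr9:55010111-55026562 on the minus strand and Chrnb4 (ENSMUSG00000035200) at chr9:55028154-55048779 on the minus strand. The cluster spans 67900 bases, with 2331 bases between Chrna5 and Chrna3 and 1591 between Chrna3 and Chrnb4. Chrna4 (ENSMUSG00000027577, chr2:181018380-181043546, minus strand), Chrnb2 (ENSMUSG00000027950, chr3:89746195-89764632, minus strand) and Chrna7 (ENSMUSG00000030525, chr7:63098692-63212569, minus strand) each lie alone on another chromosome.

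The sequences upstream of Chrna3 and Chrna5, neighbours in the cluster with opposite orientation, and of Chrna7, the subunit gene with the opposite direction of difference, are shown for comparison. They are taken from RefSeq (GRCm38.p6), run 5′ to 3′ on the strand of the gene and hold only bases before every annotated start. Capitals mark a match to GGGCGG on either strand, the GC box bound by Sp1 and related factors.
Chrna3, chr9:55026563-55026812, minus strand: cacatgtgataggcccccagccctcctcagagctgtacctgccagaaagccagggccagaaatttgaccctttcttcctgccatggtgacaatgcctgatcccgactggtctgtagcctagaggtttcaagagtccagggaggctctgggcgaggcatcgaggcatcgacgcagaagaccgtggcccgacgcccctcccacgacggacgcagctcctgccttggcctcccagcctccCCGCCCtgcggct
Chrna5, chr9:54980630-54980826, plus strand: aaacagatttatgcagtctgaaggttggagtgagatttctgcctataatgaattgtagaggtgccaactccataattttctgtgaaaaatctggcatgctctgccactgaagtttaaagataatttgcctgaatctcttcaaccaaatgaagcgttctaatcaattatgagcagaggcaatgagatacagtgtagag
Chrna7, chr7:63212570-63212776, minus strand: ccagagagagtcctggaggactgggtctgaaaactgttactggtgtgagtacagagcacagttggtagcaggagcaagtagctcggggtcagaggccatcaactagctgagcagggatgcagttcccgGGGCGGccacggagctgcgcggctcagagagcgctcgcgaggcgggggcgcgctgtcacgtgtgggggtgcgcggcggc
In the whole window of 250 bases before the RefSeq start, GGGCGG was found once each for Chrna3 (at -13) and Chrna7 (at -122), 3 times for Chrna4, and not for Chrnb2, Chrnb4 or the upstream start of Chrna5. The second RefSeq start of Chrna5 had 4 matches. The windows of Chrna4, Chrnb4 and the second start of Chrna5 hold no base that lies before every annotated start. Any match in these windows lies downstream of the outermost annotated start of its gene. The 4 matches of Chrna5 lie between GENCODE exons of the gene and upstream of its second start. Of 32851 mouse promoter windows of this length, 32.7% held a GC box. CAGCTG, an E-box bound by basic helix-loop-helix factors, was found in 1 of the windows, that of Chrnb4 at -14, and in 13% of all windows. Neither TGACGTCA, the cAMP response element (1.55% of all windows), nor TGATGNAA, bound by ATF4 with a C/EBP partner (3.45%), was found in any window of the 6 genes. A match or its absence describes only these letters.

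Totals were 15017065 to 17457583 expected counts in control samples and 15256957 to 18127171 after epinephrine, and the low-count filter kept 12747 genes, the 6 subunit genes among them. The 10 beta-cell markers were all tested and summed to 50590 to 67830 normalized CPM (counts scaled to library size and a TMM factor) in control samples and 61040 to 63140 after epinephrine. Of these markers, Slc2a2, the glucose transporter of mouse beta-cells, and Ins1 were called lower (log2 fold changes -0.76 and -0.50, edgeR FDR 0.00434 and 0.0152), where 0.612% of all genes tested were called lower. Log2 fold changes lay below 0 for 8 of the 10 and above 0 for 2, Ins2 and Iapp. Ins2 and Iapp, the most abundant of the list, were not called (log2 fold changes 0.01 and 0.33, edgeR FDR 0.974 and 0.419). The Ins1 call was lost with the replicate block and with limma, and DESeq2 called Pdx1 as well. Control 1 stood apart from the other libraries: its median absolute difference per gene from controls 2 and 3 was 0.298 and 0.289 on the log2 scale, against 0.101 between controls 2 and 3. Hepatocyte markers (9 genes) summed to 62.4 and 143.8 normalized CPM in controls 2 and 3 and to 8.24 to 10.9 in the other 4 libraries, and 6 markers of skeletal muscle to 93.6 and 75.6 in epinephrine samples 1 and 2 and to 1.65 to 3.77 elsewhere. The 6 fibroblast markers summed to 22.6, 1.66 and 8.32 in control samples and 19.5, 12.8 and 1.79 after epinephrine. Of 6 leukocyte markers, 1 was tested, Cd68. It was called higher (log2 fold change 2.39, edgeR FDR 0.00906), where 2.02% of all genes tested were called higher. The pan-leukocyte marker Ptprc had at most 2 counts in any sample. The part of such cells in the subunit values was not tested.

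All 6 subunit genes were detected in all 6 samples, at levels that differed widely between genes. Levels are compared between genes as FPKM, which scales fragments to transcript length and library total. In control cells the beta subunits stood highest, with a mean of 12.3 FPKM for Chrnb4 (8.98 to 17.3) and 10.2 FPKM for Chrnb2 (8.99 to 12.6), and their ranges overlapped. The alpha subunits followed with 2.0 FPKM for Chrna3 (1.78 to 2.16) and 1.83 FPKM for Chrna4 (1.32 to 2.6), whose ranges also overlapped. Chrna5, at 1.06 FPKM (0.78 to 1.3), and Chrna7, at 0.38 FPKM (0.19 to 0.5), were lowest and lay apart from each other. Chrnb4 stood at the 74.4th percentile of mean FPKM over all genes in the table and Chrna7 at the 44.0th.

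After chronic epinephrine the means stood in another order within each neighbouring pair. Chrnb2, at 9.25 FPKM (8.4 to 9.81), lay above Chrnb4, at 5.6 FPKM (5.24 to 6.05), with no overlap of their ranges. Chrna4, at 1.66 FPKM (1.58 to 1.72), and Chrna3, at 1.37 FPKM (1.22 to 1.59), lay next, with overlapping ranges. Chrna7, at 0.86 FPKM (0.71 to 1.14), and Chrna5, at 0.763 FPKM (0.41 to 1.13), overlapped.

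**Figure D1:**
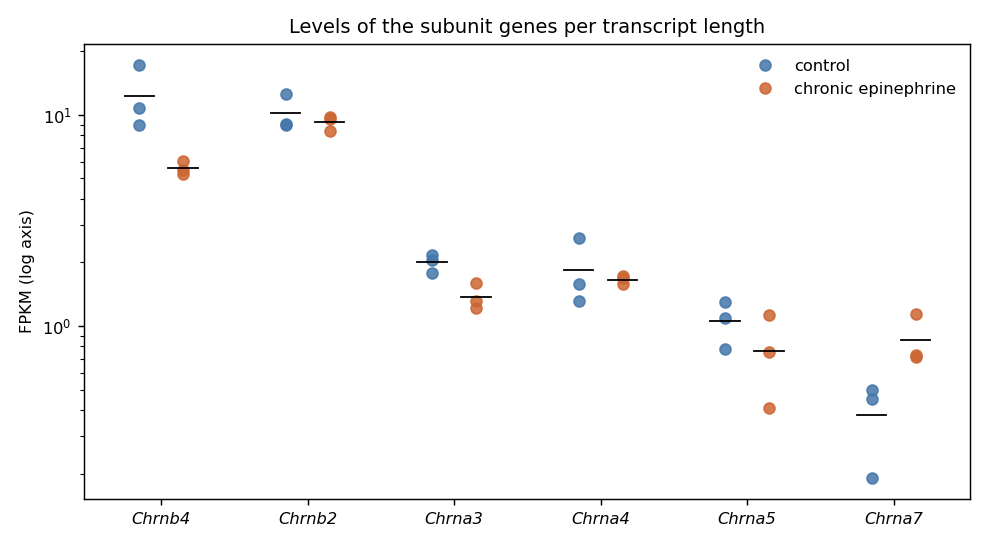
FPKM of each subunit gene (log axis) in the 3 control and 3 chronic epinephrine samples, 1 point per sample. The beta subunits Chrnb4 and Chrnb2 lie between 5.24 and 17.3 FPKM, above every alpha subunit, and Chrna7 and Chrna5 lie lowest.

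Within the cluster, the comparison with control cells gave lower means for all 3 genes, by different amounts. Chrnb4, the beta subunit that pairs with Chrna3, had 62.6, 39.9 and 33.6 normalized CPM in the control samples and 19.6, 22.9 and 20.7 after epinephrine. The groups did not overlap, and control 1 was the highest sample by a wide margin. The mean was 45.4 ± 15.2 normalized CPM in control cells (SD, n = 3) and 21.1 ± 1.65 after epinephrine (SD, n = 3). On the log2 scale the difference was -1.11 (SE 0.21), or 2.15-fold lower. Chrnb4 was the 1 of 6 subunit genes past an FDR of 0.05 in the fit over all genes, in which 2.63% of the genes tested passed in either direction and 0.612% lower. It was also past 2-fold, where 0.0863% of the genes tested were called lower. These counts are stated only as a description, because the same contrast was known when the genes were chosen. The log2 fold change of Chrnb4 was -0.80 without control 1. The count was 0 of 6 when control 2 or any epinephrine sample was left out, with replicate number as a block and with limma on log2 FPKM, and at 2-fold also without control 1.

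Chrna3, the alpha subunit of ganglionic receptors, was expressed at 6.60, 6.46 and 5.63 normalized CPM in control samples and 4.03, 5.16 and 3.84 after epinephrine. These groups did not overlap either, and the lowest control sample lay just above the highest epinephrine sample. The mean was 6.23 ± 0.524 normalized CPM in control cells and 4.34 ± 0.712 after epinephrine (SD, n = 3 each), which gave a difference on the log2 scale of -0.52 (SE 0.17). Chrna5, the accessory subunit, had 2.78, 1.54 and 2.38 normalized CPM in control samples and 2.13, 1.51 and 0.859 after epinephrine. The groups overlapped, and the log2 fold change was -0.55 (SE 0.35). The lowest value of Chrna5 rests on 13 counts, for which an exact Poisson interval at 95% gives 6.92 to 22.2 counts and covers counting error only.

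Genes tested beside the cluster had log2 fold changes from -0.02 to 0.16. On the Chrna5 side, Hykk, a hydroxylysine kinase gene, had a log2 fold change of 0.12 (SE 0.18) and Psma4, a proteasome subunit, one of 0.14 (SE 0.14), and AY074887 had no count in any sample. On the Chrnb4 side, the values were 0.04 (SE 0.08) for Ube2q2, a ubiquitin-conjugating enzyme, -0.02 (SE 0.11) for Fbxo22, an F-box protein, and 0.16 (SE 0.45) for the growth factor Nrg4. The value of Nrg4 is imprecise, as it rests on 6 to 28 counts per sample. None of the 5 neighbours tested was called by edgeR (FDR 0.662 to 0.943) or had an unadjusted p under 0.05, and the difference between the cluster and its neighbours was not tested. RefSeq extends Chrna5 to position 55011420, so that it overlaps Chrna3 by 1304 bases on the opposite strand. The strand setting of the authors' counting is not given in the sources used here, so reads from that stretch cannot be told apart.

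**Figure D2:**
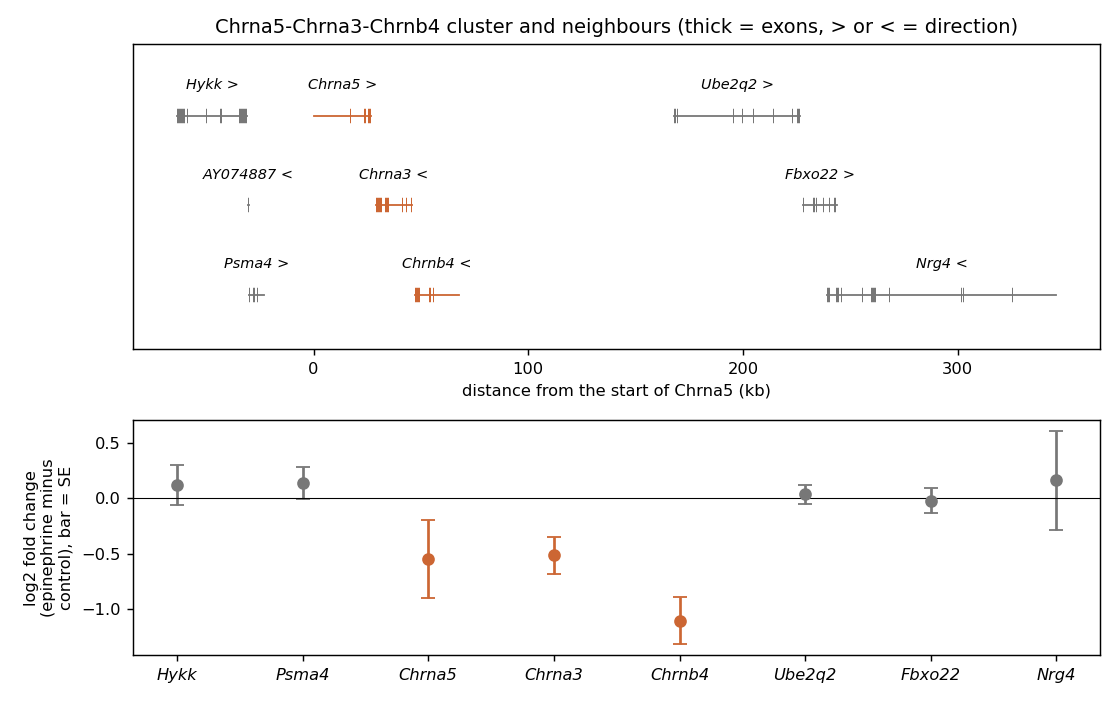
Top, the Chrna5-Chrna3-Chrnb4 cluster with 3 genes of the table on each side, drawn to scale as distance from the start of Chrna5 in kb (thick bars are exons, > and < give the direction). Bottom, log2 fold change of epinephrine minus control for each gene with its SE: the 3 cluster genes lie between -1.11 and -0.52, the 5 tested neighbours between -0.02 and 0.16.

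The subunits of the main brain receptor differed little between the groups. Chrnb2 had 77.0, 56.1 and 57.7 normalized CPM in control samples and 62.2, 53.3 and 61.0 after epinephrine. Control 1 was again the highest sample, the groups overlapped, and the log2 fold change was -0.11 (SE 0.14). Chrna4 had 11.5, 7.20 and 6.07 normalized CPM in control samples and 7.89, 7.34 and 7.74 after epinephrine, a log2 fold change of -0.11 (SE 0.22) with overlapping groups. Without control 1 the log2 fold changes turned to 0.05 for Chrnb2 and 0.20 for Chrna4, so these data give no stable direction for either gene. Exons of Chrnb2 share 1365 of 8380 bases with Adar, an RNA-editing enzyme gene on the opposite strand, and Chrnb2 counts were not whole numbers. Adar, named after its values were seen, had 52.4 normalized CPM in control 1 and 34.1 to 37.8 in the other samples, and its part in the values of Chrnb2 was not tested.

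Chrna7, which forms receptors without other subunits, was the 1 subunit gene with a higher mean after epinephrine. It had 0.388, 1.03 and 0.939 normalized CPM in control samples and 1.48, 2.41 and 1.52 after epinephrine. The groups did not overlap, and control 1, the highest control sample for the other 5 genes, was the lowest for Chrna7. The mean was 0.785 ± 0.347 normalized CPM in control cells and 1.80 ± 0.524 after epinephrine (SD, n = 3 each), which gave a difference on the log2 scale of 1.19 (SE 0.38), or 2.28-fold higher. These values rest on 6, 18 and 15 counts in control samples and 25, 43 and 23 after epinephrine. The exact 95% Poisson interval ran from 10.7 to 28.4 counts for the highest control sample and from 14.6 to 34.5 for the lowest epinephrine sample, so that the intervals of these neighbouring samples overlap. Without control 1 the log2 fold change was 0.88.

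**Figure D3:**
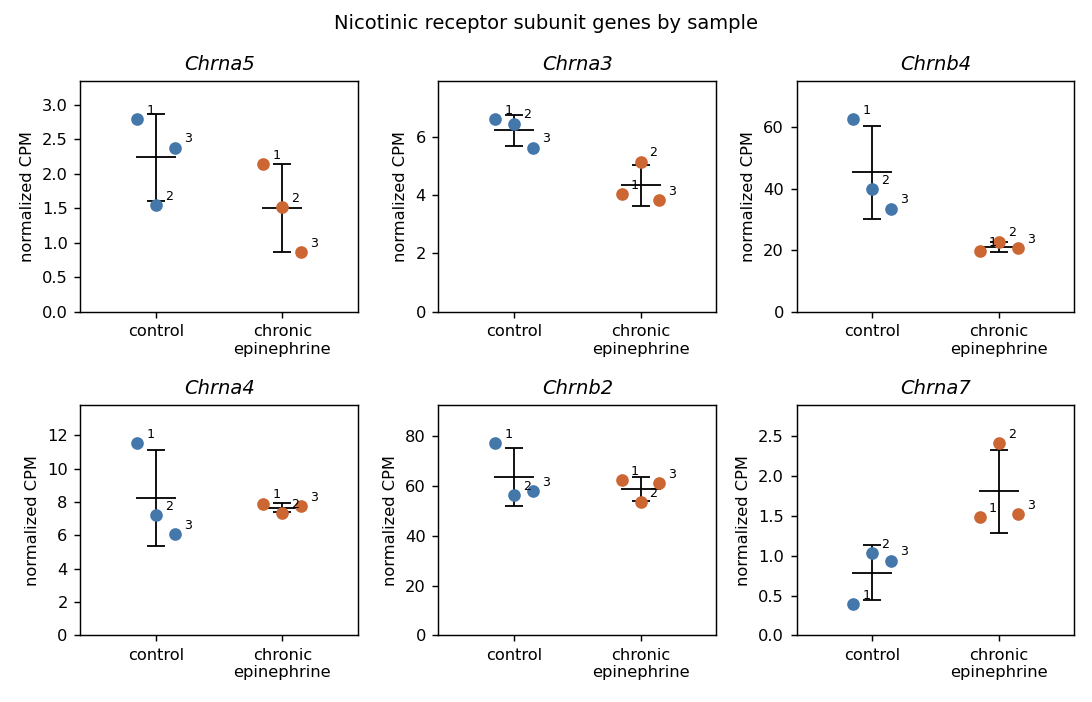
Normalized CPM of each subunit gene by group, 1 point per sample (n = 3 each), each panel with its own linear axis from 0. The groups lie apart for Chrnb4 and Chrna3 (lower after epinephrine) and for Chrna7 (higher), and overlap for Chrna5, Chrna4 and Chrnb2.

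Across the 6 genes, 5 log2 fold changes lay below 0 and their median was -0.32, while 50.5% of all 12747 genes tested lay below 0, with a median of 0.00. Without control 1, 3 of the 6 lay below 0 and their median was -0.16. Groups lay apart and lower after epinephrine for 2 of the 6, against 13.0% of all genes tested, and apart and higher for 1, against 14.3%, or for 3 of the 6 in either direction, against 27.3%. In cultures measured in bulk, fewer cells expressing a gene and less RNA of it per cell cannot be told apart.

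**Figure D4:**
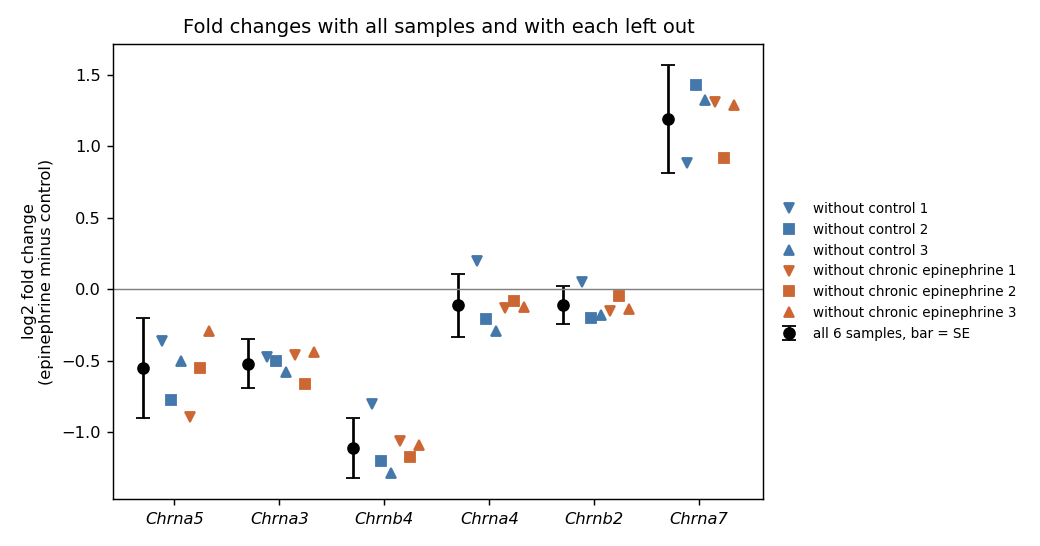
Log2 fold change (epinephrine minus control) of each subunit gene with all 6 samples and with each sample left out in turn. Values stay below 0 for Chrnb4 (-1.28 to -0.80), Chrna3 (-0.66 to -0.44) and Chrna5 (-0.89 to -0.29) and above 0 for Chrna7 (0.88 to 1.43), and cross 0 for Chrna4 and Chrnb2.

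The make-up of the summed subunit level differed as well. The 6 genes together came to 36.1, 24.7 and 22.7 FPKM in control samples and 19.9, 19.5 and 19.1 FPKM after epinephrine. The cluster genes held 57.5%, 55.1% and 52.2% of that sum in control samples and 38.6%, 43.0% and 37.4% after epinephrine, with no overlap. Of these genes, only Chrnb4 had shares that lay apart, at 39.5% to 47.9% in control samples and 26.3% to 31.0% after epinephrine. The shares overlapped for Chrna3 (5.98% to 8.35% and 6.39% to 8.15%) and for Chrna5 (3.16% to 4.8% and 2.15% to 5.67%). The ratio of Chrnb4 to Chrnb2 FPKM, which compares the beta subunits within a library, was 1.38, 1.2 and 0.987 in control samples and 0.534, 0.72 and 0.577 after epinephrine. All 3 control ratios were above all 3 epinephrine ratios. The ratio of Chrnb4 to its partner Chrna3 was 8.01, 5.22 and 5.04 in control samples and 4.0, 3.81 and 4.52 after epinephrine, again without overlap. Ratios of Chrnb4 to Chrna5 overlapped, at 13.3, 13.8 and 8.24 in control samples and 4.64, 8.07 and 13.4 after epinephrine.

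**Figure D5:**
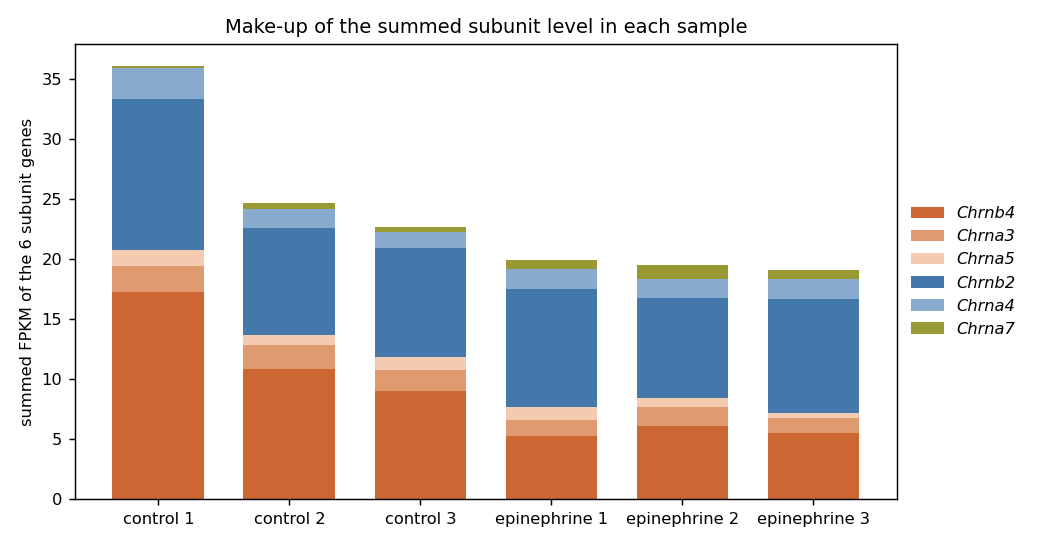
Summed FPKM of the 6 subunit genes in each sample, stacked by gene. The sum lies between 22.7 and 36.1 FPKM in control samples and between 19.1 and 19.9 after epinephrine, with Chrnb4 and Chrnb2 as the largest parts in every sample.

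Of the remaining 10 nicotinic subunit genes, 1 passed the filter on low counts. Chrna9, Chrna10, Chrnb3, Chrnd, Chrne and Chrng had no count in any sample. By a fixed bound, a count of 0 was taken to allow up to 3 counts, or 0.168 to 0.198 normalized CPM depending on the library (counting error only). The exact 95% Poisson interval used for other low counts reaches 3.69 counts at a count of 0. Chrnb1, the beta subunit of muscle receptors, was the gene that passed the filter, at 0.712, 0.572 and 1.19 normalized CPM in control samples and 0.593, 1.23 and 1.12 after epinephrine. Its groups overlapped (log2 fold change 0.26, SE 0.40, edgeR FDR 0.784). Chrna2 had 7, 7 and 10 counts in control samples and 2, 6 and 7 after epinephrine, and Chrna1, the alpha subunit of muscle receptors, had at most 4. In control cells the mean of Chrnb1, 0.387 FPKM, was close to the 0.38 FPKM of Chrna7. None of the genes that could be tested was called (1 by edgeR, 4 by DESeq2, 2 by limma), and 0 had an unadjusted edgeR p under 0.05. In the 2 epinephrine samples with skeletal muscle markers, Chrnd, Chrne and Chrng were at 0, Chrna1 had 0 and 4 counts and Chrnb1 10 and 22 counts. The part of muscle RNA in these values was not tested.

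Markers of other cells in which these subunits are known were looked at beside the members. Of 6 markers of autonomic neurons, which use Chrna3 and Chrnb4, 3 passed the filter and 0 were called by edgeR. An unadjusted edgeR p under 0.05 was found for 2 of the 3, which 17.1% of all genes tested had. DESeq2 called 1 of the 5 it tested, Th, lower, where it called 729 of all 17363 genes it tested. The list summed to 469.1 to 540.8 normalized CPM in control samples and 436.6 to 443.7 after epinephrine, nearly all of it from Th, the rate-limiting enzyme of catecholamine synthesis, and the neurofilament gene Nefm. The part of such cells, and of the hepatocyte RNA in controls 2 and 3, in the values of the subunit genes was not tested.

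Among muscarinic receptors, which signal through G proteins, Chrm3 was the main gene of 5, at 66.6, 53.7 and 51.1 normalized CPM in control samples and 47.6, 43.7 and 51.2 after epinephrine. The groups overlapped narrowly, and the log2 fold change was -0.27 (SE 0.12, edgeR FDR 0.306). The log2 fold change of Chrm4 was -0.12 (SE 0.23, FDR 0.825), and neither gene was called by edgeR, DESeq2 or limma. An unadjusted p under 0.05 was found for 0 of the 2 genes tested by edgeR and for 1 by limma. The other 3 muscarinic genes did not pass the filter.

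Of 8 genes of acetylcholine synthesis, transport and breakdown, 4 passed the filter. All 4 had log2 fold changes below 0 (median -0.18), against 50.5% of all genes tested. None was called by edgeR, DESeq2 or limma, and 0 had an unadjusted edgeR p under 0.05. Slc44a1, a choline transporter, had 178.5, 168.1 and 169.0 normalized CPM in control samples and 149.6, 156.2 and 161.1 after epinephrine, without overlap (log2 fold change -0.14, SE 0.08, FDR 0.403). The values were -0.36 (SE 0.27, FDR 0.542) for the vesicular acetylcholine transporter Slc18a3 and -0.14 (SE 0.13, FDR 0.626) for the cholinesterase Bche. Chat, which makes acetylcholine, had 1 count in 1 epinephrine sample and none elsewhere.

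Of 16 assembly factors and Ly6-type modulators of nicotinic receptors, 10 passed the filter and 0 were called by edgeR, while 5 had an unadjusted p under 0.05, which 17.1% of all genes tested had, and the median log2 fold change was -0.25. The log2 fold change was -0.22 (SE 0.09, FDR 0.251) for Ywhah, a 14-3-3 protein, and 0.35 (SE 0.13, FDR 0.22) for Rer1, which retains unassembled subunits early in the secretory pathway. Ly6e, at -0.02 (SE 0.09), overlapped between groups. Vsnl1, the calcium sensor visinin-like 1, known to act on surface receptors of Chrna4 and Chrnb2, is named after its values were seen. It had 27.6, 31.6 and 30.9 normalized CPM in control samples and 22.1, 23.0 and 20.9 after epinephrine, without overlap. Its log2 fold change of -0.45 (SE 0.10) lay at an edgeR FDR of 0.0528, and DESeq2 and limma with 0.1 added to FPKM called it. The nicotinic receptor chaperones Ric3 and Tmem35a, also named after their values were seen, were not called, with log2 fold changes of 0.27 (SE 0.10, FDR 0.197) and -0.28 (SE 0.11, FDR 0.235).

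Of 26 other Cys-loop receptor genes, 10 passed the filter and 0 were called by edgeR, DESeq2 or limma. An unadjusted edgeR p under 0.05 was found for 3 of the 10, which 17.1% of all genes tested had. Their log2 fold changes were above 0 in 9 of 10 (median 0.23), against 49.5% of all genes tested. The glycine receptor beta subunit Glrb averaged 88.9 ± 7.71 normalized CPM in control samples and 100.8 ± 2.31 after epinephrine (SD, n = 3 each), without overlap (log2 fold change 0.18, SE 0.09, FDR 0.352). Glra1, a glycine receptor alpha subunit, was at -0.37 (SE 0.18, FDR 0.34). The difference between these receptors and the nicotinic subunits was not tested.

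Of 9 transcription factors known to act on nicotinic subunit genes, 4 passed the filter and 1, Etv1, was called. Etv1, an ETS-family factor, had 176.6, 162.7 and 163.4 normalized CPM in control samples and 245.6, 256.8 and 254.5 after epinephrine. It rose by a log2 fold change of 0.59 (SE 0.08, edgeR FDR 0.00853) without overlap, where 2.02% of all genes tested were called higher. The call was kept by DESeq2, by limma and with the replicate block, and was lost when control 2 or any epinephrine sample was left out. Sp1 and Sp3, which bind GC boxes, had log2 fold changes of -0.13 (SE 0.08, FDR 0.435) and -0.02 (SE 0.11, FDR 0.954).

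The genes nearest to a subunit gene in pattern were found by the root mean square difference of centred log2 CPM over the 6 samples. For Chrnb2 they were Ezr (0.0256), Ddx24 (0.0273) and Rabep2 (0.0299), all with control 1 as the highest sample. For Chrna7 they were H2-Q5 (0.173), Csn3 (0.188) and Dapl1 (0.193), all with control 1 as the lowest. Csn3, the gene of kappa-casein, was the most abundant of these, at 22.7, 38.0 and 42.2 normalized CPM in control samples and 62.3, 80.6 and 72.9 after epinephrine. For Chrnb4, added after its values were seen, Baiap3, a Munc13-related gene of regulated exocytosis, was nearest (0.0797), at 126.0, 76.6 and 66.6 normalized CPM in control samples and 41.2, 40.3 and 38.7 after epinephrine. Since these genes were selected for likeness to a subunit gene, their fold changes carry no test here.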

How the data were processed

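RNA-seq of 3 control and 3 chronic epinephrine samples of MIN6 cells was analysed from the table the authors deposited, with groups taken from the labels. It holds expected counts per gene, not normalized between samples, and FPKM values, both made by the authors. The build is GRCm38 per the labels, and the aligner and counting tool are not given in the sources used here. Expected counts, 8.34% of which were not whole, were rounded. In R 4.3.3, 12747 genes kept by filterByExpr were scaled by TMM and tested with the quasi-likelihood test of edgeR 4.0.16, with the group as the model's single term, and FDR is Benjamini-Hochberg adjusted over all genes tested. A gene was called at an FDR under 0.05, or at that FDR and at least 2-fold. The SE of a log2 fold change was computed as |log2 fold change| over √F.

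The subunit genes and gene lists were chosen with earlier results of these data known. Named genes were fixed by a rule: the 6 subunit genes, called genes and the 3 of highest mean FPKM in each list, 3 genes on each side of the cluster, and the 3 nearest in pattern to the subunit genes of largest fold change and of highest FPKM. Exceptions are marked. Alternatives were other scalings, other filters on low counts, DESeq2 1.42.0, limma 3.58.1 with 1 or 0.1 added to FPKM, replicate number as a block, and each sample left out. Of 22298 identifiers, 22255 were found in GENCODE M21 (GRCm38). Promoters came from RefSeq (GRCm38.p6), and a motif was searched on both strands. Totals of 15017065 to 18127171 expected counts set the precision, and a count of 0 was taken, by a fixed bound, to allow up to 3 counts. A few genes that the rule names are not reported here.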

Additional observations from a re-analysis of the deposited data

How the results depend on the processing

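Beside 335 genes called at any fold and 92 at 2-fold or more, DESeq2 called 729, limma with 1 added to FPKM called 38 at 2-fold or more, and leaving out 1 sample gave 47 (without epinephrine sample 1 or 2) to 2798 (without control 1) and 33 to 211. Of the 6 subunit genes, 1 (Chrnb4) was called at either threshold, 0 with limma at either pseudocount and 0 to 1 with a sample left out. Of the 31 genes of the cholinergic and related lists tested by edgeR, marker lists aside, 1 (Etv1) was called. With the size factors of DESeq2 and with library size only, 2 of the 31 (Etv1 and Vsnl1) were called. The same 2 were called by DESeq2, of 61 tested, and by limma with 0.1 added, of 38 tested. With a sample left out, 0 to 6 of 32 tested were called. The 6, without control 1, were Etv1, Gabrq, Rer1, Ric3, Vsnl1 and Ywhah. In that setting 2798 of all 12966 genes tested were called, so the 6 are given as a description. With a sample left out, log2 fold changes ran from -0.29 to 0.20 for Chrna4 and from -0.20 to 0.05 for Chrnb2, reversing only without control 1. Chrna3, Chrna5, Chrna7 and Chrnb4 kept their direction in every setting run, and Chrna7 could not be fitted where at least 10 counts were asked for in every sample. With limma and 1 added to FPKM, the log2 fold change of Chrna7 was 0.43, since a pseudocount lowers the fold change of genes of low FPKM. The causes of the other shifts were not tested.

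With replicate number as a block, 178 genes were called, 0 of the 6 subunit genes at either threshold, and the log2 fold change of Chrnb4 was -1.06. The labels do not tie the numbers to a shared batch, and for numbers 1, 2 and 3 the correlation across genes of both samples' departures from their group mean was 0.0502, 0.0677 and -0.0488, so the numbers were not treated as pairs. Low counts limit Chrna5, Chrna7, Chrnb1, Chrna2 and Nrg4, and 3 samples against 3 allow no exact permutation p under 0.1 for a single gene.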

Other observations

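The deposited table's own KEGG annotation of the cholinergic synapse, chosen after the values were seen, holds 118 genes, the listed receptors among them, of which 88 were tested. Of these, 3 were called by edgeR, against 2.63% of all genes tested: Atf4, a transcription factor of the integrated stress response, was higher after epinephrine, and Chrnb4 and Gnai1, an inhibitory G protein alpha subunit, were lower. Log2 fold changes lay above 0 for 27 and below 0 for 61, with a median of -0.09 against 0.00 over all 12747 genes tested, and 19 (21.6%) had an unadjusted p under 0.05, against 17.1% of all. Of 4 markers of other islet cells, 2 were tested. Gcg, the glucagon gene, was called higher (log2 fold change 1.02, edgeR FDR 0.00199), where 2.02% of all genes tested were called higher. Sst, the somatostatin gene, was not called (log2 fold change 0.25, edgeR FDR 0.811).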
